A study of Mus musculus with 10 samples.

Results

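The 10 genes described here form the core of the unfolded protein response and the integrated stress response: the sensors Ern1, Eif2ak3 and Atf6, the transcription factors Atf4, Ddit3 and Xbp1, and the output genes Herpud1, Trib3, Asns and Chac1. They were taken by name, and each symbol matched 1 of the 41813 genes in the deposited tables. The RNA came from dendritic cells grown from mouse bone marrow, which present antigen to T cells and are labelled CD11c+ and MHCIIhigh, in 3 activated and 3 non-activated libraries. Per the series' design text, dendritic cells of both kinds had been incubated with lipopolysaccharide (LPS), were pulsed or not with the ovalbumin peptide OVA323-339, and were then kept for 24 h with CD4+ T cells of the OT-II line, which carry a receptor for this peptide. The sample labels instead tie activation to LPS and give none for the non-activated samples, so the groups are called activated and non-activated as in the titles. Whether the replicates of a group came from different mice or cultures is not said, and each p-value therefore refers to the spread among these libraries, which may be technical. The series holds another 4 samples, of ATAC-seq, which were not analysed here.

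The endoplasmic reticulum (ER) folds proteins that are secreted or sit in membranes, and the unfolded protein response adjusts its capacity. IRE1, encoded by Ern1, removes a short intron from Xbp1 mRNA so that an active XBP1 factor is made, and can also cut other ER-bound mRNAs. PERK, encoded by Eif2ak3, phosphorylates the initiation factor eIF2, which lowers protein synthesis in general while raising translation of Atf4 mRNA. ATF6 is cut in the Golgi to release a transcription factor. The integrated stress response is the wider pathway in which PERK and 3 other kinases, PKR (Eif2ak2), GCN2 (Eif2ak4) and HRI (Eif2ak1), meet at eIF2 and ATF4. ATF4 activates genes of amino acid supply and redox balance as well as Ddit3, which encodes CHOP. In dendritic cells the IRE1-XBP1 branch is known to be active in the resting state of some subsets and to matter for their survival and antigen presentation. Much of this pathway is set by phosphorylation, cleavage, splicing and translation, none of which gene-level RNA counts measure.

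The total per library was 21338012 to 27404937 expected counts (RSEM's estimate of reads per gene). The CPM values below are counts set to a common library size with TMM factors. Defining dendritic cell genes were present in every library, with Cd74 at 5401 to 8522 CPM and Itgax, which encodes CD11c, at 198 to 442 CPM. Of the 8 dendritic cell markers, all tested, 2 were higher and 0 lower in activated cells. These were Zbtb46 (2.00-fold, 89.5 against 44.8 CPM, edgeR adjusted p = 0.00201) and Ciita (1.53-fold, adjusted p = 0.0299), so the marker genes were not all level between the groups. Flt3 was lowest, at 13.6 to 24.9 CPM. The libraries numbered 1 in both groups stood apart in T cell receptor genes: Trac was at 7420 CPM in the activated and 7444 CPM in the non-activated one, against 2.73 to 27.8 CPM in the other 4, and Trbc2 at 107 and 106 CPM against 0.504 to 1.88 CPM. The T cell marker list (12 genes, 8 tested, 3 higher and 0 lower in activated cells) summed to 46.0 to 7572 CPM with activation and 50.6 to 7574 CPM without it. Without these 2 genes it summed to 32.8 to 45.5 and 24.3 to 50.7 CPM, and the defining T cell gene Cd3e was at 0.152 to 1.90 CPM. Il2 was at 8.62 CPM in activated replicate 1 and at most 0.531 CPM elsewhere. The 8 macrophage and monocyte markers summed to 1161 to 1553 CPM with activation and 1255 to 1479 CPM without it, with 2 lower and 0 higher. The 8 neutrophil markers summed to at most 0.568 CPM, and of 8 B and plasma cell markers, which summed to 200 to 252 and 246 to 285 CPM, 1 was higher and Jchain was at 0 in all libraries. The mitochondrial share moved with the group, being 1.80% to 2.12% in the activated libraries and 2.20% to 2.56% in the others. The part of these differences in the results below was not tested, but each member's result is also given without both replicate 1 libraries, an alternative chosen after seeing the data.

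In the fit on group alone, without the replicate block, activated cells had less RNA of 1 of 3 sensors and 2 of 3 transcription factors. Of the 4 output genes, Trib3 and Asns rose, Herpud1 fell and Chac1 did not pass. By edgeR's quasi-likelihood test, adjusted over all 13946 genes tested, Atf4, Xbp1, Eif2ak3 and Herpud1 fell and Trib3 and Asns rose, while Atf6, Ddit3, Ern1 and Chac1 did not pass. That made 6 of 10 members called, where 27.6% of all tested genes were called: 4 of 10 lower against 11.7% of all genes, and 2 of 10 higher against 15.9%. All 10 members passed the filter on low counts. They were chosen with earlier results of these data known, so these shares are a description and not a test. The median log2 fold change of the members was -0.35, and that of all tested genes 0.01. At an unadjusted p under 0.05 there were 9 of 10 members and 5507 of 13946 genes. With the replicate number as a block, Ddit3 and Ern1 were called lower too, which gave 6 lower and 2 higher where 37.2% of all genes were called, 17.2% lower and 20% higher. Without both replicate 1 libraries 4 were lower and 2 higher (of all genes 23.3% were called, 10.4% lower and 12.9% higher), Ern1 being called and Eif2ak3 not. The count of 4 lower became 2 without non-activated replicate 1 or without non-activated replicate 2. The count of 2 higher became 0 without activated replicate 2, non-activated replicate 2 or non-activated replicate 3. In bulk RNA, fewer cells that express a gene and less RNA per cell cannot be told apart.

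**Figure D1:**
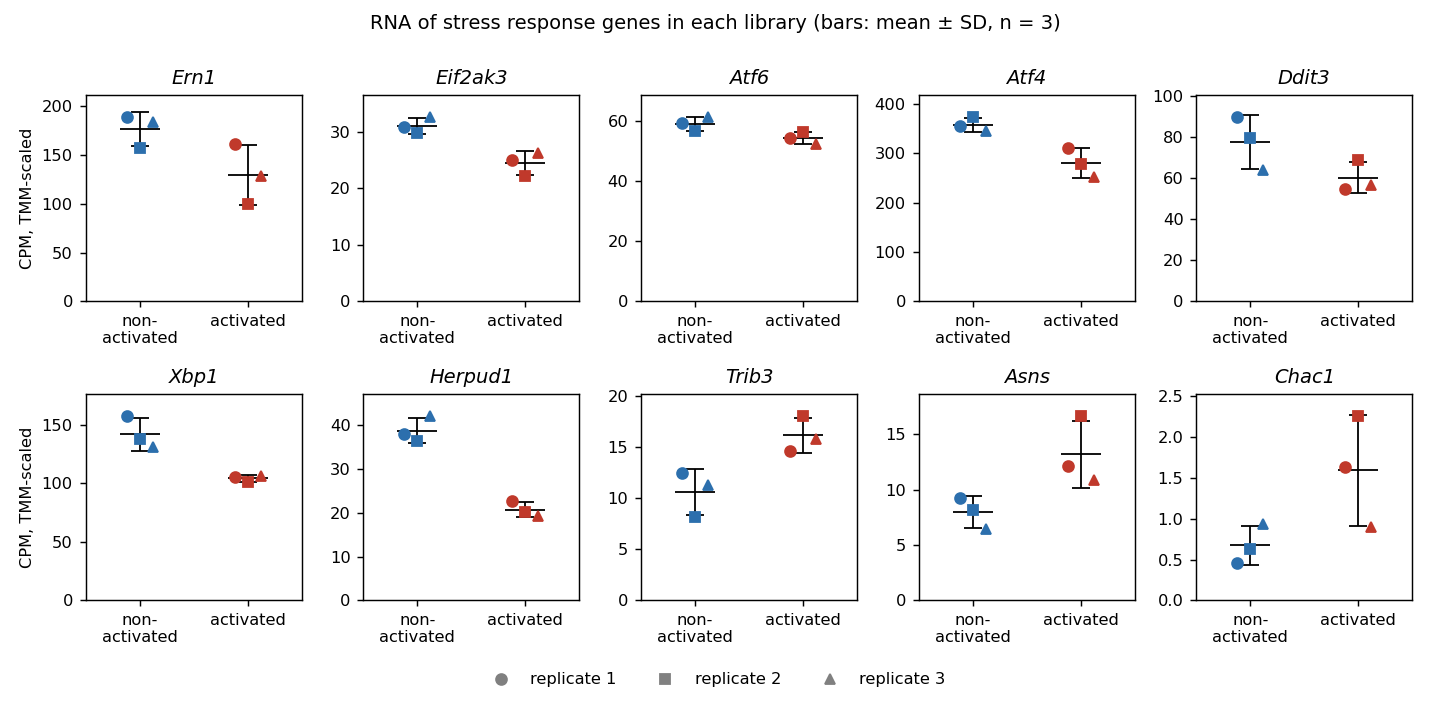
RNA level (vertical axis, CPM, TMM-scaled, from 0) of each of the 10 genes in the 3 non-activated (blue) and 3 activated (red) libraries; bars give the mean ± SD and the marker shape the replicate number. The groups do not overlap for Herpud1, Xbp1, Atf4, Eif2ak3, Atf6, Trib3 and Asns, and overlap for Ern1, Ddit3 and Chac1. The share of all tested genes without overlap was not counted, so it is not known whether this is unusual. Lack of overlap is not a call: Atf6 did not pass (edgeR adjusted p = 0.254).

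The members differed widely in level. On the deposited TPM scale, which corrects for transcript length, Atf4 was the most abundant, at 266 ± 20.2 TPM in activated and 343 ± 15.0 TPM in non-activated cells (SD, n = 3), above 96.6% of tested genes by its mean over the 6 libraries. Ddit3 (126 ± 16.3 and 162 ± 20.9 TPM) and Xbp1 (87.2 ± 4.86 and 115 ± 5.64 TPM) followed, so the transcription factors of both the PERK and IRE1 branches stood above their sensors. Ern1 was at 31.7 ± 8.28 and 44.2 ± 5.24 TPM and Herpud1 at 18.6 ± 1.03 and 36.2 ± 4.26 TPM. Atf6 (11.3 ± 0.311 and 12.4 ± 0.884 TPM), Trib3 (13.0 ± 1.69 and 8.49 ± 1.75 TPM), Eif2ak3 (8.50 ± 0.986 and 11.1 ± 0.938 TPM) and Asns (10.9 ± 2.08 and 8.49 ± 1.94 TPM) lay close together, and their order changed between the groups. Chac1 was lowest, at 1.60 ± 0.660 and 0.690 ± 0.278 TPM. In non-activated cells, neighbours in the upper part of this order (Atf4, Ddit3, Xbp1, Ern1) did not overlap in any library. Ern1 and Herpud1 did overlap there, with 38.7 to 49.2 and 33.1 to 41.1 TPM.

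Of the sensors, Ern1 (chr11:106397620-106487796, mouse build GRCm38.p6) encodes the kinase and RNase IRE1. It was at 162, 99.3 and 128 CPM in activated replicates 1 to 3 and at 189, 157 and 184 CPM in the non-activated ones. Activated replicate 2 was lowest of all libraries, and activated replicate 1 lay inside the non-activated range. The log2 fold change of -0.45 ± 0.16 (SE) did not pass (edgeR adjusted p = 0.0781). It was called with the replicate block (log2 -0.47, adjusted p = 0.00486), without activated replicate 1 (adjusted p = 0.00837) and without both replicate 1 libraries (log2 -0.60, adjusted p = 0.0191).

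Eif2ak3 (chr6:70844484-70905241), which encodes the eIF2 kinase PERK, was at 24.9, 22.1 and 26.2 CPM in activated and 30.8, 29.7 and 32.6 CPM in non-activated replicates. Each activated library was below each non-activated one. It was 1.27-fold lower in activated cells (log2 -0.34 ± 0.10, SE; edgeR adjusted p = 0.0285). Leaving out activated replicate 2 ended the call (adjusted p = 0.0740), as did leaving out non-activated replicate 1 (0.0704), 2 (0.0561) or 3 (0.0966), and without both replicate 1 libraries (log2 -0.38, adjusted p = 0.0613). On the deposited TPM it did not pass either (limma adjusted p = 0.0977), and adjusted p ran from 0.00874 to 0.177 over all alternatives.

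Atf6 (chr1:170704457-170868585) encodes the sensor that becomes a transcription factor on cleavage. Its RNA stood at 54.3, 56.1 and 52.3 CPM in activated and 59.3, 56.5 and 61.1 CPM in non-activated replicates. The groups did not overlap but lay side by side, and differed least of all members, at 0.919 times the non-activated level with a 95% interval of 0.819 to 1.03 (edgeR adjusted p = 0.254). No alternative called it.

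Atf4 (chr15:80255184-80257545) encodes the transcription factor common to all eIF2 kinases. It was at 311, 278 and 252 CPM in activated and 356, 374 and 345 CPM in non-activated replicates, with no overlap. The fall was 1.28-fold (log2 -0.35 ± 0.10, SE; edgeR adjusted p = 0.0268). The call was lost on leaving out any 1 library but activated replicate 1: adjusted p was 0.0604 and 0.0725 without activated replicate 2 and 3, and 0.0716, 0.0931 and 0.0585 without non-activated replicate 1, 2 and 3. Without both replicate 1 libraries it was kept (log2 -0.46, adjusted p = 0.0129), and adjusted p ran from 0.00427 to 0.0931 over all alternatives.

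Ddit3 (chr10:127290793-127296291) encodes CHOP, a factor that ATF4 induces and that takes part in stress-related cell death. It was at 54.6, 68.8 and 56.7 CPM in activated and 89.5, 79.2 and 63.7 CPM in non-activated replicates. Activated replicate 2 was above non-activated replicate 3, so the groups overlapped. The log2 fold change of -0.37 ± 0.14 (SE) did not pass (edgeR adjusted p = 0.0845). It was called with the replicate block (log2 -0.36, adjusted p = 0.0318), without activated replicate 2 (adjusted p = 0.0425) or non-activated replicate 3 (0.0347), and in DESeq2 (0.0410). Without both replicate 1 libraries the log2 fold change was -0.21 (adjusted p = 0.319), a move of over 1.5 times.

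Xbp1 (chr11:5520641-5525993), whose mRNA is the splicing substrate of IRE1, was at 105, 101 and 106 CPM in activated and 157, 137 and 131 CPM in non-activated replicates. The activated libraries lay within 6 CPM of one another and all below the non-activated ones. It was 1.36-fold lower (log2 -0.44 ± 0.09, SE; edgeR adjusted p = 0.00666) and was called under each of the 15 alternatives, with adjusted p from 0.000171 to 0.0224; without both replicate 1 libraries the log2 fold change was -0.39. The gene tables sum the 4 annotated Xbp1 transcripts, so the share that IRE1 had spliced was not measured. The mean transcript length that the tables give for Xbp1, weighted by estimated transcript abundance, was 1971, 1907 and 1923 nt in activated and 2005, 1979 and 1983 nt in non-activated replicates. It was thus shorter in each activated library; which transcripts differ was not tested.

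The DNA at the start sites of the output genes is shown because ATF4, ATF6 and XBP1 are known to act through short elements near such sites. RefSeq windows (GRCm38.p6) from 250 bases before to 50 after the start of 9 of the 10 members were searched on both strands for 4 motifs. These were the C/EBP-ATF response element bound by ATF4 (CARE, TGATGNAA), the ER stress response element of ATF6 (ERSE, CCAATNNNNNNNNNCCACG), its second form ERSE-II (ATTGGNCCACG) and the unfolded protein response element (UPRE, TGACGTGG). ERSE and ERSE-II hold the same half-sites, and no matches overlapped. The 4 output genes each had 1 CARE match, and Herpud1 also 1 ERSE-II match. Ern1, Eif2ak3, Atf4, Ddit3 and Xbp1 had no match to any of the 4 in this window. Of all 32851 windows, 3.97% held a CARE, 0.119% an ERSE, 0.0365% an ERSE-II and 0.676% a UPRE. In the sequences below, 5′ to 3′ on the strand of the gene, capitals mark the matches, and positions count from the start site with no position 0.
Asns, bases -100 to -1, minus strand, chr6:7693210-7693309: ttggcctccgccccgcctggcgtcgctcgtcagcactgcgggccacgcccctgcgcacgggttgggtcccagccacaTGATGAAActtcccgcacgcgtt
Chac1, bases -230 to -131, plus strand, chr2:119351012-119351111: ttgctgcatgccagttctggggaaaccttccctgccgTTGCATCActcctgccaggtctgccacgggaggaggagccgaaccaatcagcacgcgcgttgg
Herpud1, bases -150 to -21, plus strand, chr8:94386279-94386408: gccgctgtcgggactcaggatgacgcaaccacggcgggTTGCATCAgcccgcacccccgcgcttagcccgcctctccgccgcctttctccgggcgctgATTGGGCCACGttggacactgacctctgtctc
Trib3, bases 4 to 33, minus strand, chr2:152344028-152344057: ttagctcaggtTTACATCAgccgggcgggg
The CARE match ran forward in Asns, at -23 to -16, and in reverse in Chac1 (-193 to -186), Herpud1 (-112 to -105) and Trib3 (15 to 22). The ERSE-II match of Herpud1 lay at -52 to -42. So the member that fell most and the 2 that rose all held a CARE match; a match is a description of letters and shows no binding.

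**Figure D2:**
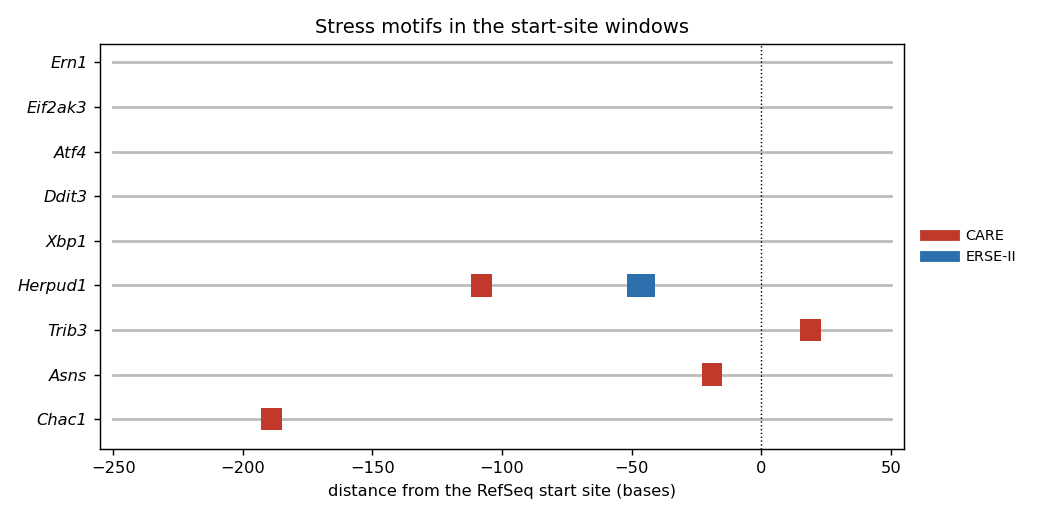
Matches to the CARE (red) and ERSE-II (blue) motifs along the window from 250 bases before to 50 after the RefSeq start site (horizontal axis, bases; dotted line at the start) of the 9 genes with a window. Asns, Chac1, Herpud1 and Trib3 have 1 CARE match each, Herpud1 has the ERSE-II match, and the other 5 windows have none; ERSE and UPRE had no match.

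Herpud1 (chr8:94386429-94395371) encodes an ER membrane protein that helps degrade misfolded proteins and is a target of both ATF6 and ATF4. It changed with the smallest adjusted p of the members. It was at 22.6, 20.3 and 19.2 CPM in activated and 37.9, 36.4 and 42.0 CPM in non-activated replicates, a gap wider than the range within either group. The fall was 1.87-fold (log2 -0.91 ± 0.10, SE; edgeR adjusted p = 0.000396). It was called under all 15 alternatives, with log2 fold changes from -1.01 to -0.85, the lowest being that without both replicate 1 libraries.

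Of the remaining outputs, Trib3 and Asns rose in activated cells. Trib3 (chr2:152337425-152344060) encodes a pseudokinase that ATF4 and CHOP induce and that feeds back on them. It was at 14.6, 18.0 and 15.8 CPM in activated and 12.4, 8.11 and 11.3 CPM in non-activated replicates, without overlap. The rise was 1.52-fold (log2 0.60 ± 0.17, SE; edgeR adjusted p = 0.0305). Leaving out activated replicate 2 ended the call (adjusted p = 0.0992), as did leaving out activated replicate 3 (0.0766) or non-activated replicate 2 (0.0742) or 3 (0.0708), and it did not pass on the deposited TPM (limma adjusted p = 0.0596). It was kept without both replicate 1 libraries (log2 0.78, adjusted p = 0.0213).

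Asns (chr6:7675165-7693209) encodes asparagine synthetase, an amino acid response gene. It was at 12.1, 16.6 and 10.9 CPM in activated and 9.29, 8.15 and 6.41 CPM in non-activated replicates. Activated replicate 2 was the highest, and the groups did not overlap. The rise was 1.66-fold (log2 0.73 ± 0.20, SE; edgeR adjusted p = 0.0284). It did not pass without activated replicate 2 (adjusted p = 0.0882) or non-activated replicate 2 (0.0756) or 3 (0.100), and was kept without both replicate 1 libraries (log2 0.90, adjusted p = 0.0295). On the deposited TPM the log2 difference was 0.33 (limma adjusted p = 0.265) and the groups overlapped, with 9.48, 13.3 and 9.98 TPM against 10.6, 7.95 and 6.88 TPM. The abundance-weighted transcript length of Asns, which enters TPM and not the counts, was 2001, 2001 and 1832 nt in activated and 1416, 1689 and 1619 nt in non-activated libraries. Adjusted p ran from 0.00569 to 0.417 over all alternatives.

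Chac1 (chr2:119351242-119354326) encodes an enzyme that breaks down glutathione and is among the strongest targets of ATF4 in stressed cells. Its expected counts were only 44, 46 and 22 in activated and 12, 15 and 23 in non-activated replicates, or 1.64, 2.26 and 0.898 CPM against 0.457, 0.630 and 0.932 CPM. Activated replicate 3 was below non-activated replicate 3. The fitted fold was 2.35 with a 95% interval of 1.17 to 4.76 and fell short of the threshold (log2 1.24 ± 0.44, SE; edgeR adjusted p = 0.0716). It was called without activated replicate 3 (log2 1.51, adjusted p = 0.0431), while without both replicate 1 libraries it was at log2 0.97 with adjusted p = 0.270.

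**Figure D3:**
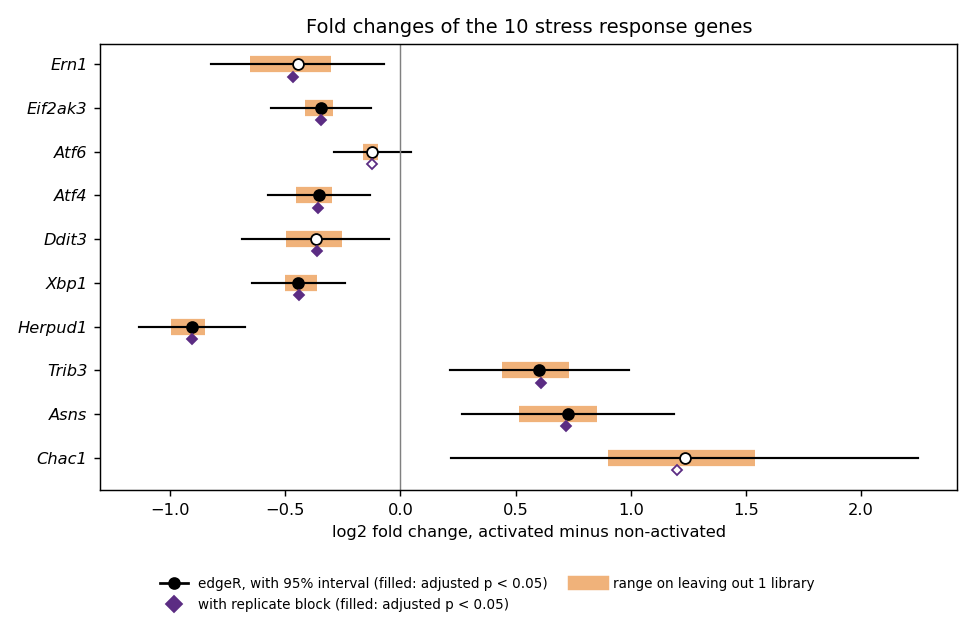
Log2 fold change (horizontal axis, activated minus non-activated) of each gene from edgeR with its 95% interval (black), from the fit with the replicate block (purple) and over the fits that leave out 1 library (orange range); filled symbols have an adjusted p under 0.05. None of these fits turned the direction of a member: the 7 upper genes were below 0 and Trib3, Asns and Chac1 above it.

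Within the groups the members did not vary as 1 block. Correlations of deviations from the group means of log2 CPM, over 6 libraries that share the group means and the scaling, ranged from -0.893 (Eif2ak3 with Asns) to 0.935 (Ddit3 with Asns) among the 45 pairs. The sensors Ern1 and Eif2ak3 deviated together (0.705), as did Ddit3 and Xbp1 (0.573). The sensor Atf6 did not go with Ern1 (-0.0396) or Eif2ak3 (-0.226), but did with Trib3 (0.726), Chac1 (0.723) and Herpud1 (0.648). Atf4 and its target Ddit3 did not deviate together (0.0533), and Trib3 and Asns did so weakly (0.286). With only 6 libraries these values describe the libraries and were not tested. Over the 6 libraries with the group difference left in, the genes most like Atf4 by Pearson's r of log2 CPM were Ubr7 (0.997), Nme3 (0.997) and Rala (0.996). Those most like Xbp1 were Tcf25 (0.997), Copz1 (0.994) and Tpd52 (0.991), and those most like Ddit3 were Gm45311 (0.989), Crot (0.986) and 4930402H24Rik (0.984). None of these 9 is on the pathway lists below. Those lists hold only 135 of the 13946 tested genes besides the members, so this absence says little about the pathway.

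The other genes of the pathway, 140 on 10 lists that partly share genes, were called about as often as all genes: 31 of the 135 tested were higher and 7 lower, or 28.1% against 27.6%. Their median log2 fold change was 0.04. The lists differed in what moved. The share called, against 27.6% of all genes, was 26.7% for the kinase and eIF2 genes and 15.8% for ER-associated degradation. It was 41.4% for the ATF4 and CHOP targets, 41.7% for the aminoacyl-tRNA synthetases and 50% for the bZIP factors and relatives. It was 57.1% for the IRE1 partners, 40% for the ATF6 cleavage genes and 0% for the mRNAs cut by IRE1. These shares depended on the scale. On the deposited TPM, limma called 1467 of 12588 genes higher and 1102 lower. There 9 of 26 ATF4 and CHOP targets rose and 2 fell, and 2 of 12 synthetases rose and 0 fell. Of 13 bZIP factors and relatives 2 rose and 1 fell, of 7 IRE1 partners 1 rose and 1 fell, and of 5 ATF6 cleavage genes 1 rose and 0 fell. Of 29 tested targets of ATF4 and CHOP, 10 rose and 2 fell (11 and 2 without both replicate 1 libraries, 12 and 5 with the replicate block), with a median of 0.23. The stress cofactor Nupr1 was 2.78-fold higher, at 77.5 ± 5.77 against 27.9 ± 4.60 CPM (SD, n = 3; edgeR adjusted p = 9.8e-05). The 1-carbon enzymes of the mitochondrion Mthfd2 (1.67-fold, 124 ± 14.0 against 74.2 ± 3.98 CPM) and Shmt2 (1.87-fold, 21.5 ± 3.68 against 11.5 ± 0.809 CPM) rose, as did the cationic amino acid transporter Slc7a1 (1.86-fold, 56.9 ± 10.8 against 30.5 ± 3.38 CPM) and the serine synthesis enzyme Psat1 (1.77-fold, 12.3 ± 1.76 against 6.92 ± 0.913 CPM). Each of these 5 was called on leaving out any 1 library. The 2 that fell were the pro-apoptotic Bbc3 (14.4 ± 1.88 against 30.3 ± 3.58 CPM) and the growth arrest gene Gadd45a (27.2 ± 8.54 against 46.9 ± 9.34 CPM). Bbc3 kept its call throughout. For Gadd45a (adjusted p = 0.0350) the call ended on leaving out activated replicate 1 (0.0584) or 3 (0.0648), non-activated replicate 1 (0.0751) or 2 (0.117), or both replicate 1 libraries (0.0861). The leucine and stress sensor Sesn2 (89.7 ± 11.3 against 83.4 ± 14.9 CPM) and the mTORC1 inhibitor Ddit4 (153 ± 30.3 against 130 ± 21.7 CPM) did not pass (adjusted p = 0.635 and 0.338), although Ddit4 was called with the replicate block (adjusted p = 0.0284).

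**Figure D4:**
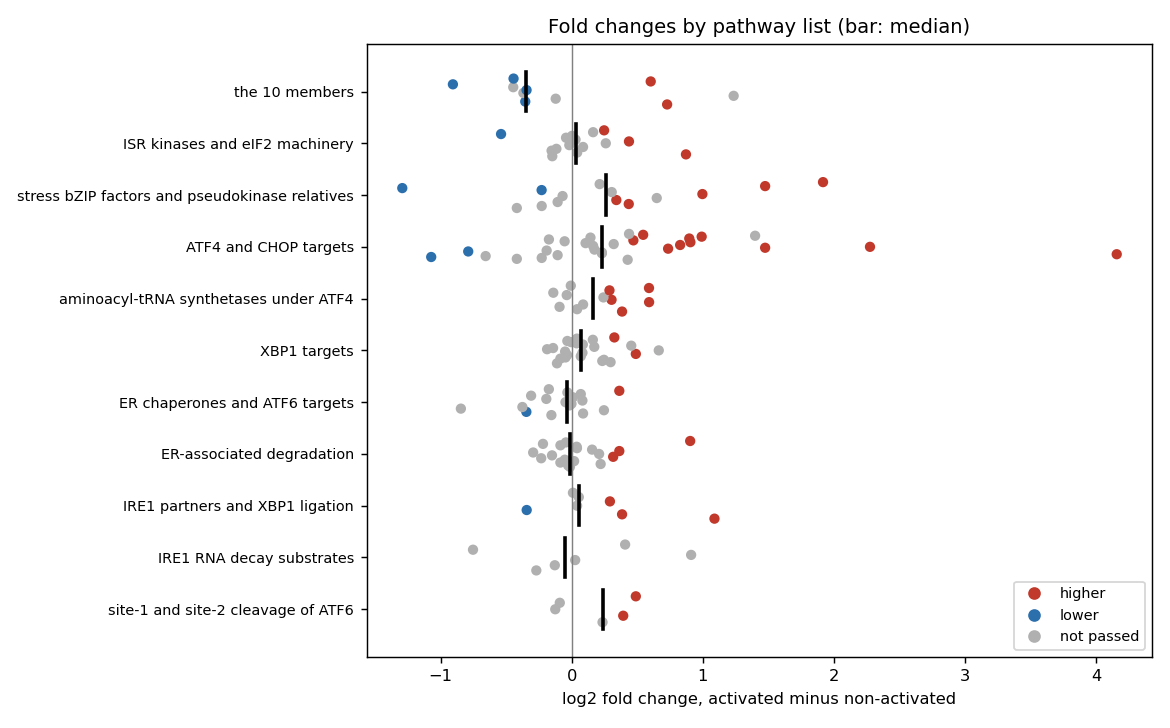
Log2 fold change (horizontal axis, activated minus non-activated) of each tested gene on the 10 pathway lists and of the 10 members, red where higher, blue where lower and grey where the edgeR adjusted p was 0.05 or more; black bars are medians. The medians of the ER chaperone list (-0.03) and the ER-associated degradation list (-0.01) lie near 0, that of the ATF4 and CHOP targets at 0.23 and that of the members at -0.35.

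Aminoacyl-tRNA synthetases, which load tRNAs and are partly under ATF4, rose in 5 of 12 with 0 lower (6 and 0 with the replicate block, 3 and 0 without both replicate 1 libraries, 2 to 4 and 0 on leaving out 1 library; median 0.16). Iars (1.51-fold, 46.7 ± 1.38 against 31.0 ± 2.21 CPM; edgeR adjusted p = 0.00132) and Wars (1.51-fold, 76.6 ± 11.2 against 50.9 ± 4.91 CPM; adjusted p = 0.00862) were called on leaving out any 1 library; interferon gamma is also known to induce Wars. Lars (1.23-fold, adjusted p = 0.0184) was no longer called on leaving out activated replicate 2 (0.0866), non-activated replicate 1 (0.0633), 2 (0.0766) or 3 (0.0554) or both replicate 1 libraries (0.0635). Aars (1.31-fold, adjusted p = 0.0300) was no longer called on leaving out activated replicate 2 (0.0915) or 3 (0.0675) or non-activated replicate 1 (0.0814) or 3 (0.117). Neither Lars nor Aars passed by limma on the deposited TPM. Adjusted p of Aars ran from 0.00495 to 0.378 over all alternatives.

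Upstream of ATF4, 3 of 15 kinase and eIF2 genes rose and 1 fell (median 0.03), a share of 26.7% against 27.6% of all genes. The counts were 4 and 1 with the replicate block and 2 and 1 without both replicate 1 libraries. Eif2ak2, which encodes the double-stranded RNA sensor PKR and is itself interferon-inducible, was at 40.1, 41.1 and 64.8 CPM in activated and 24.4, 24.4 and 31.0 CPM in non-activated replicates. It was 1.83-fold higher (edgeR adjusted p = 0.0115), with activated replicate 3 far above the rest. This was the opposite direction to the PERK gene Eif2ak3, while the GCN2 gene Eif2ak4 stood at 50.1 ± 4.56 against 48.6 ± 1.39 CPM (95% interval of the log2 difference -0.16 to 0.24; adjusted p = 0.761). The substrate subunit Eif2s1 rose 1.35-fold (79.2 ± 7.72 against 58.5 ± 1.57 CPM; adjusted p = 0.00738). Impact, an inhibitor of GCN2 activation, fell from 151 ± 6.02 to 104 ± 5.84 CPM (adjusted p = 0.00144). Of the genes for the eIF2 phosphatase subunits, the stress-induced Ppp1r15a (GADD34) did not pass, at 183 ± 19.0 against 164 ± 7.07 CPM (adjusted p = 0.226). The constitutive Ppp1r15b was 1.19-fold higher (adjusted p = 0.0363). It lost that call without any 1 library but activated replicate 2: 0.0699 and 0.120 without activated replicate 1 and 3, 0.0810, 0.107 and 0.133 without non-activated replicate 1, 2 and 3, and 0.120 without both replicate 1 libraries.

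Related bZIP factors, pseudokinases and cofactors moved both ways, with 5 of 14 higher and 2 lower (7 and 4 with the replicate block, 3 and 1 of 13 tested without both replicate 1 libraries, and 3 and 1 of 14 without non-activated replicate 1 or without non-activated replicate 2; median 0.26). The largest fall among the named ones was that of Nfil3, a repressor of transcription known for its part in dendritic cell development, from 301 ± 18.0 to 123 ± 4.81 CPM (edgeR adjusted p = 2.4e-05). The antioxidant regulator Nfe2l2 was at 196 ± 6.85 against 230 ± 8.60 CPM (adjusted p = 0.0486) and lost its call without any 1 library (0.0533, 0.0544 and 0.0993 without activated replicate 1, 2 and 3, and 0.139, 0.150 and 0.0752 without non-activated replicate 1, 2 and 3) and without both replicate 1 libraries (0.103). Nupr1 rose as above, and the membrane-bound factor Creb3l2, cleaved like ATF6, was 2.00-fold higher (12.3 ± 1.80 against 6.15 ± 0.317 CPM; adjusted p = 0.00193). Atf6b, the paralogue of Atf6, was 1.35-fold higher (91.8 ± 4.56 against 67.9 ± 5.17 CPM; adjusted p = 0.00634), a call kept on leaving out any 1 library but lost on the deposited TPM (limma adjusted p = 0.0844). Cebpg, a partner of ATF4, was 1.27-fold higher (adjusted p = 0.0244) and lost its call without any 1 library but activated replicate 3 (0.0705 and 0.0795 without activated replicate 1 and 2, and 0.0896, 0.0665 and 0.0663 without non-activated replicate 1, 2 and 3) and without both replicate 1 libraries (0.153). Cebpg did not pass on the deposited TPM either. Atf3, a stress-induced bZIP gene, was at 335, 470 and 483 CPM in activated and 587, 606 and 528 CPM in non-activated replicates. Its log2 fold change of -0.42 ± 0.15 (SE) missed the threshold (edgeR adjusted p = 0.0647) but was called lower with the replicate block (adjusted p = 0.0245).

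The ER folding machinery showed few calls. Among ER chaperones and ATF6 targets 1 of 17 rose and 1 fell, a share of 11.8%, and among XBP1 targets 2 of 23 rose and 0 fell, a share of 8.70%, where 27.6% of all genes were called. Without both replicate 1 libraries these counts were 1 and 1, and 1 and 0, and with the replicate block 1 and 2, and 4 and 0. On leaving out 1 library, 0 to 1 chaperone and ATF6 target genes rose and 0 to 2 fell, and 0 to 2 XBP1 targets rose. Hspa5, which encodes the chaperone BiP, was at 877, 849 and 648 CPM in activated and 897, 842 and 638 CPM in non-activated replicates, so that libraries with the same number were alike across the groups (log2 0.00 ± 0.16, SE, 95% interval -0.37 to 0.37; edgeR adjusted p = 0.996). The chaperone regulators Dnajb9 (56.4 ± 12.3 against 48.0 ± 2.53 CPM) and Sdf2l1 (43.9 ± 5.00 against 45.0 ± 5.85 CPM) did not pass (adjusted p = 0.266 and 0.865). The secreted ER stress protein Creld2 was lower (35.6 ± 4.37 against 45.3 ± 2.37 CPM; adjusted p = 0.0404), a call that ended on leaving out activated replicate 3 (0.0778) or non-activated replicate 1 (0.0615), 2 (0.129) or 3 (0.108). Creld2 did not pass on the deposited TPM. The COPII coat gene Sec24d (1.40-fold, adjusted p = 0.0159) was no longer called on leaving out activated replicate 2 (0.0591) or 3 (0.0507) or non-activated replicate 2 (0.0568) or 3 (0.0566). On the deposited TPM it did not pass by limma, and the groups overlapped, with 20.3, 23.7 and 22.8 TPM in activated and 21.5, 12.5 and 24.1 TPM in non-activated replicates. Adjusted p of Sec24d ran from 0.00458 to 0.620 over all alternatives. Ufm1, a ubiquitin-like modifier of ER proteins (1.25-fold, adjusted p = 0.0334), kept its call only without activated replicate 3 among the fits that leave out 1 library (0.0772 and 0.0913 without activated replicate 2 and 1, 0.113, 0.0817 and 0.0959 without non-activated replicate 1, 2 and 3) and lost it without both replicate 1 libraries (0.186).

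In the list of ER-associated degradation, the process in which HERPUD1 acts, 3 of 19 rose and 0 fell (median -0.01). That is a share of 15.8%, where 27.6% of all genes were called. The counts were 5 and 2 with the replicate block, 2 and 0 without both replicate 1 libraries, and 1 to 3 and 0 on leaving out 1 library. With upper quartile factors 3 rose and 1 fell there. Vcp, the ATPase that pulls proteins out of the ER membrane, rose from 309 ± 11.7 to 578 ± 23.5 CPM (1.87-fold; edgeR adjusted p = 0.000159) in each activated library. Sel1l, the scaffold of the HRD1 ligase, was 1.29-fold higher (adjusted p = 0.0151) and was no longer called on leaving out activated replicate 2 (0.0539) or non-activated replicate 2 (0.0608) or 3 (0.0676). Faf2, a VCP adaptor, was 1.25-fold higher (adjusted p = 0.0263) and was no longer called on leaving out activated replicate 1 (0.0793) or 2 (0.0690), non-activated replicate 2 (0.103) or 3 (0.0901) or both replicate 1 libraries (0.0643).

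Around IRE1, 3 of 7 tested partners rose and 1 fell (2 and 1 without both replicate 1 libraries, 1 to 2 and 1 on leaving out 1 library; median 0.05). Map3k5, the kinase ASK1 downstream of IRE1 and TRAF2, was 2.13-fold higher (18.3 ± 2.83 against 8.59 ± 1.94 CPM; edgeR adjusted p = 0.00314), and the ER-bound phosphatase gene Ptpn1 was lower (264 ± 10.3 against 335 ± 6.44 CPM; adjusted p = 0.0095). Tmbim6, an IRE1 inhibitor (1.22-fold, adjusted p = 0.0412), kept its call only without activated replicate 1 among the fits that leave out 1 library (0.131 and 0.112 without activated replicate 2 and 3, 0.109, 0.0849 and 0.148 without non-activated replicate 1, 2 and 3). The stress kinase gene Mapk8 (1.31-fold, adjusted p = 0.0490) lost its call without any 1 library (0.146, 0.0714 and 0.0719 without activated replicate 1, 2 and 3, and 0.0640, 0.129 and 0.162 without non-activated replicate 1, 2 and 3) and without both replicate 1 libraries (0.107). None of 6 tested mRNAs known as substrates of IRE1's RNA decay was called by edgeR, with 2 of 6 at an unadjusted p under 0.05. With the replicate block, without both replicate 1 libraries or without activated replicate 1 alone, 1 of 6 was called higher. Of the 5 genes for cleavage and transport of ATF6, 2 rose (also without both replicate 1 libraries, but 3 with the replicate block and 0 to 2 on leaving out 1 library) and 0 fell: Sec24d, given above, and the site-2 protease gene Mbtps2 (1.31-fold, adjusted p = 0.0189), which was no longer called on leaving out activated replicate 2 (0.0568) or non-activated replicate 2 (0.0501) or 3 (0.0648).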

How the data were processed

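Per the labels' protocols, 200 ng of total RNA went into each library (NEBNext Ultra), read from 1 end over 60 nt. Per the file headers, the authors deposited RSEM-style gene tables with an expected count, TPM, FPKM and mean transcript length per gene. FPKM, also the authors', entered no test. The submitters' processing notes name GRCm38; no source used here gives the RNA aligner. Gene IDs gave symbols for 41597 of 41813 genes. RefSeq coordinates and sequences are those of GRCm38.p6.

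Expected counts were rounded and tested in edgeR 4.0.16 (R 4.3.3) with filterByExpr, TMM factors, glmQLFit and glmQLFTest on group alone, with Benjamini-Hochberg adjustment over 13946 genes at a threshold of 0.05. The SE was taken as the size of the log2 fold change over the square root of F. Deposited TPM was tested with limma 3.58.1 on log2(TPM + 1), for genes at 1 TPM or more in 3 libraries. Other alternatives were DESeq2 1.42.0, RLE and upper quartile factors, no filter, a pseudocount of 0.1, the replicate block and leaving out libraries. The scripts were checked on simulated data. Totals were 21338012 to 27404937 counts per library, and the common biological coefficient of variation was 16.9%.

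Titles share replicate numbers across groups, and deviations from group means correlated at 0.398, 0.313 and 0.187 for libraries of the same number and at -0.315 to 0.0402 otherwise. Libraries of the same number thus deviated alike in these data, least so for number 3. As given above, the number 1 libraries of both groups also shared high Trac (7420 and 7444 CPM) and Trbc2 (107 and 106 CPM), and Hspa5 was alike by number. What lay behind this was not tested. The labels state no pairing, and with 3 libraries per group the correlations are not independent of one another, so a pairing is not established. The reported test is therefore on group alone, and the blocked value is given where it changes the call of a named gene or a list's count.

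The members and lists were chosen with earlier results of these data known. Named genes are the members, 10 genes always named, and up to 4 higher and 4 lower genes of each of 10 lists by smallest adjusted p, and the 3 genes most correlated with each of Atf4, Ddit3 and Xbp1. Reads that match several genes are split by RSEM's estimate, and strand is not stated, so overlapping genes on opposite strands cannot be told apart.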

Additional observations from a re-analysis of the deposited data

How the results depend on the processing

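Over 15 alternatives (13 for Chac1, which lies below the TPM filter), no member changed direction, and Xbp1, Herpud1 and Atf6 stayed on their side of the threshold in all. With the replicate block, 2787 genes were higher and 2397 lower, 2 and 6 members were called, and Ddit3 (log2 -0.36) and Ern1 (-0.47) passed; the block changed no other member's call. Ddit3 and Ern1 also passed in DESeq2 (-0.38 and -0.46) and with no filter (-0.39 and -0.47). Without both replicate 1 libraries Ern1 passed (-0.60) and Eif2ak3 did not (-0.38). Limma on the deposited TPM called 1467 genes higher (1440 with a pseudocount of 0.1, 1163 unfiltered) and 1102 lower (1076 and 719), and 0 members higher in all 3 forms; Eif2ak3 (-0.36, -0.39 and -0.36), Trib3 (0.57, 0.62 and 0.57) and Asns (0.33, 0.37 and 0.33) did not pass there. Leaving out 1 library gave 1586 to 1956 genes higher and 1061 (without non-activated replicate 2) to 1673 lower, 0 to 2 members higher and 2 to 5 lower, and log2 fold changes of -0.46 to -0.30 for Atf4, -0.50 to -0.25 for Ddit3, -0.65 to -0.30 for Ern1, -0.41 to -0.29 for Eif2ak3, 0.44 to 0.73 for Trib3, 0.52 to 0.86 for Asns and 0.90 to 1.54 for Chac1. The causes were not tested.

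The 39 named pathway genes gave 585 values, of which 440 kept direction and side, 125 fell below the threshold, 4 passed it and 16 turned sign, all 16 in genes with no call in the reported test: Dnajb9 on TPM (-0.0064, -0.0066 with the pseudocount of 0.1 and -0.0064 unfiltered), Hspa5 on TPM (0.027 in all 3 forms), with the replicate block (0.00098) and leaving out 1 library (-0.14 to 0.11), Sdf2l1 without both replicate 1 libraries (0.0096) and leaving out 1 library (-0.14 to 0.031), Eif2ak4 leaving out 1 library (-0.047 to 0.077) and Sesn2 leaving out 1 library (-0.038 to 0.18). In all 3 forms of the deposited TPM the calls of Aars, Atf6b, Cebpg, Creld2, Gadd45a, Lars, Nfe2l2, Ppp1r15b, Sec24d and Tmbim6 were lost. Chac1 had 162 expected counts in all, the fewest of the members. How far depth limits its call was not tested.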
